A study of Mus musculus with 24 samples.

Results

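Osteoclasts, the cells that resorb bone, also release or display signals that act on the bone-forming osteoblast lineage, and such signals are called coupling factors. The transcripts of 8 of them were followed while bone marrow-derived macrophages (BMMs) were exposed to RANKL, the cytokine that drives macrophages towards osteoclasts: Sphk1, Sema4d, Efnb2, Cthrc1, Pdgfb, Wnt10b, Bmp6 and Lif. They were chosen by name as textbook coupling factors, and every array probe whose annotation gave 1 of these symbols alone was used. This gave 17 probes for the 8 genes, of 19057 genes with such a probe. BMMs came from the marrow of male C57BL/6 mice at 5 weeks of age and were expanded with M-CSF, a macrophage growth and survival factor. Groups of 6 arrays, 24 in all, were collected after 0, 24, 48 and 72 h in 30 ng/ml M-CSF with 100 ng/ml RANKL, the 0 h group being sampled as the control. The design has no later group without RANKL, so the effect of RANKL and that of time in culture cannot be told apart. No source states that replicate samples were separate mice or separate dishes, and the p-values therefore cover only their spread, part or all of which may be technical.

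The members act in different ways on neighbouring cells. Sphingosine kinase 1, encoded by Sphk1, makes sphingosine-1-phosphate, a lipid that attracts and supports osteoblast precursors. Semaphorin 4D, encoded by Sema4d, is a membrane and shed ligand that restrains osteoblasts through Plexin-B1, and PDGF-BB, the dimer of the Pdgfb product, recruits mesenchymal and vessel-forming cells. Ephrin-B2 (Efnb2) is a membrane ligand of the EphB4 receptor, and the products of Cthrc1, Wnt10b, Bmp6 and Lif are secreted proteins that act on cells of the osteoblast lineage. The arrays measure the transcripts of these genes, not the lipid, the proteins or their release.

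Of the 8 genes, 3 were detected and tested, Sphk1, Sema4d and Pdgfb, and each had its own course. Sema4d rose 3.00-fold by 24 h and 4.06-fold by 72 h against 0 h, Pdgfb rose 2.54-fold by 24 h and stayed at that level, and Sphk1 was below detection at 24 h alone. The other 5 genes, Efnb2, Cthrc1, Wnt10b, Bmp6 and Lif, were not detected on any of the 24 arrays.

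Because the courses of Sphk1 and Sema4d parted at 24 h, the RefSeq sequence around a start of each gene is shown, chosen because it holds TGANTCA, 250 bases before the start and 50 after it, on the gene's strand and in build GRCm38.p6. Windows of this kind were at hand for 6 of the 8 genes, 12 windows in all, and not for Pdgfb and Cthrc1. The motifs searched, on both strands, were TGANTCA, the site of AP-1 factors such as c-Fos, GGAAA, the core bound by NFAT factors such as NFATc1, and CACGTG, an E-box. They do not overlap one another in the windows shown. The Sphk1 window lies at chr11:116531587-116531886 on the plus strand, and the Sema4d window at chr13:51748761-51749060 on the minus strand. Capitals mark the matches to TGANTCA.
Sphk1: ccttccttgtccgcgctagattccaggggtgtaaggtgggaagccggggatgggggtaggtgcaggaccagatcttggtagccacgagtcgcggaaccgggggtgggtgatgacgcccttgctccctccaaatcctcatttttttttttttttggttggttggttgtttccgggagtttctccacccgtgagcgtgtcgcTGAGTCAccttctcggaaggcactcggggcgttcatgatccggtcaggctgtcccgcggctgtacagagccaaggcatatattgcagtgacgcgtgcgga
Sema4d: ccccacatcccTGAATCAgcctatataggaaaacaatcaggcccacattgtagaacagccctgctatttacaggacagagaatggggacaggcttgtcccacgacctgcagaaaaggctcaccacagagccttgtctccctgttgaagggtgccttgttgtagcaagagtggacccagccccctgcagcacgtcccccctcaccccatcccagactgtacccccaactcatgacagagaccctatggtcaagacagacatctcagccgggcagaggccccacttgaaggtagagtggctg
The Sphk1 window, 58.0% GC, held TGAGTCA at position -50 from the start, and the Sema4d window held TGAATCA at -239. Among the other members, Lif had TGACTCA at -228, while the windows of Efnb2, Wnt10b and Bmp6 held no TGANTCA, and neither did 3 of the 5 Sphk1 windows and 2 of the 3 Sema4d windows. GGAAA was in all 5 Sphk1 windows, all 3 Sema4d windows and the Lif window, and in none of Efnb2, Wnt10b and Bmp6. CACGTG was in 2 of the 5 Sphk1 windows and in the Bmp6 window, but not in those of Sema4d, Efnb2, Wnt10b and Lif. The Sphk1 windows that hold TGANTCA overlap each other and share 1 TGAGTCA site and 1 GGAAA site. Those that hold CACGTG overlap as well and share 1 CACGTG site and 1 GGAAA site, so the windows are not separate stretches. Of all 32851 windows of this length, 7.81% hold TGANTCA, 61.3% GGAAA and 7.15% CACGTG. Which start was used in these cells was not measured. A match is a run of letters only, and a window with no match says nothing of a factor.

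Signals below are quantile-normalized log2 intensities, and a probe was counted as detected on an array where its deposited detection p was under 0.05. Sphk1 was followed by probe ILMN_1232884. At 0 h its log2 signal ran between 7.49 and 7.91 with a median of 7.58, and it was detected on 6 of 6 arrays. At 24 h the 6 arrays lay between 6.54 and 6.81 with a median of 6.68, and it was detected on 0 of 6. At 48 h the range was 7.55 to 7.81 (median 7.66) and at 72 h it was 7.56 to 7.93 (median 7.62), with detection on 6 of 6 arrays at both times. Every 24 h array was thus lower than every array of the other times, while the 0, 48 and 72 h arrays overlapped. The 24 h mean was 6.68 ± 0.09, against 7.63 ± 0.15 at 0 h (SD, n = 6 each), a measured log2 difference of -0.95 (SE 0.07, adjusted p = 2.56e-15, limma). Since the lowest signal that counted as detected was 6.99 to 7.08 depending on the array, the 24 h level has only an upper bound, and Sphk1 was at least 1.53-fold lower at 24 h than at 0 h. This fold is the 0 h mean against, for each 24 h array, the higher of that lowest detected signal and the probe's own.

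Sphk1 then returned. It was at least 1.56-fold higher at 48 h than at 24 h (measured log2 difference 0.98, adjusted p = 5.00e-16, limma). At 48 h it did not differ from 0 h beyond the spread between arrays, by 0.03 on the log2 scale with a 95% interval of -0.10 to 0.17 (adjusted p = 0.663, limma). At 72 h the difference from 0 h was 0.04, interval -0.09 to 0.17 (adjusted p = 0.602, limma), and that from 48 h was 0.01, interval -0.13 to 0.14 (adjusted p = 0.958, limma). A fall at 24 h followed by a rise to 48 h was common on these arrays. It was called for 23.9% of the 9917 genes tested, and for 3.74% when no call at 48 or 72 h against 0 h was required as well.

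The other Sphk1 probes gave no course, and neither was detected on any array. Probe ILMN_2650336 stayed between 6.33 and 6.58. Probe ILMN_2732199, whose transcript record is the only one of the 3 that is still in the current RefSeq gene list, stayed between 6.61 and 7.0, with a lowest detection p of 0.0609. The course of Sphk1 therefore rests on 1 probe, whose transcript record is not in that list.

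Sema4d was the member that moved furthest. Its single probe, ILMN_2762582, was detected on all 24 arrays. At 0 h the log2 signal ran between 8.44 and 8.86 with a median of 8.74. At 24 h it ran between 10.17 and 10.43 (median 10.24) and at 48 h between 10.17 and 10.35 (median 10.27). At 72 h it ran between 10.49 and 10.85 with a median of 10.72. The 0 h arrays lay below all others, the 24 and 48 h arrays overlapped, and the 72 h arrays lay above both.

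The Sema4d mean at 24 h was 10.28 ± 0.11, against 8.69 ± 0.16 at 0 h (SD, n = 6 each), 3.00-fold higher (log2 1.58, SE 0.07, adjusted p = 9.20e-22, limma). The 48 h mean, 10.27 ± 0.07, exceeded that of 0 h 2.99-fold (adjusted p = 5.47e-22, limma). The 72 h mean, 10.71 ± 0.12, exceeded it 4.06-fold (adjusted p = 2.07e-25, limma). Between 24 and 48 h no difference was found, -0.01 on the log2 scale with a 95% interval of -0.14 to 0.13 (adjusted p = 0.946, limma). A further step followed at 72 h, 1.36-fold above 48 h (log2 0.44, interval 0.31 to 0.58, adjusted p = 8.07e-07, limma). With the 12 arrays tested alone and a Bonferroni adjustment, this last step did not pass (adjusted p = 0.149). At least as large a rise against 0 h was seen in 0.736% of all genes tested at 24 h, 1.30% at 48 h and 0.63% at 72 h.

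Pdgfb, which encodes the B chain of platelet-derived growth factor, rose once and then held. Probe ILMN_2618714 was detected on all 24 arrays. At 0 h its log2 signal ran between 8.80 and 9.08 with a median of 9.0. At 24 h it ran between 10.22 and 10.41 (median 10.31), at 48 h between 10.25 and 10.48 (median 10.33) and at 72 h between 10.17 and 10.36 (median 10.29). The 3 later ranges overlapped, and all of their arrays lay above every 0 h array.

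The Pdgfb mean at 24 h was 10.32 ± 0.08, against 8.98 ± 0.11 at 0 h (SD, n = 6 each), 2.54-fold higher (log2 1.34, SE 0.05, adjusted p = 6.02e-22, limma). The rise over 0 h stood at 2.59-fold by 48 h (adjusted p = 1.57e-22, limma) and 2.49-fold by 72 h (adjusted p = 4.64e-22, limma). From 24 to 48 h the log2 difference was 0.03, interval -0.08 to 0.14, and from 48 to 72 h it was -0.06, interval -0.17 to 0.05 (adjusted p = 0.627 and 0.428, limma). A rise against 0 h at least as large was seen in 1.22% of genes at 24 h, 1.99% at 48 h and 2.5% at 72 h. The other Pdgfb probe, ILMN_2726543, was detected on no array and averaged 6.61, 6.80, 6.74 and 6.71 at 0, 24, 48 and 72 h, so the rise rests on 1 probe.

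**Figure D1:**
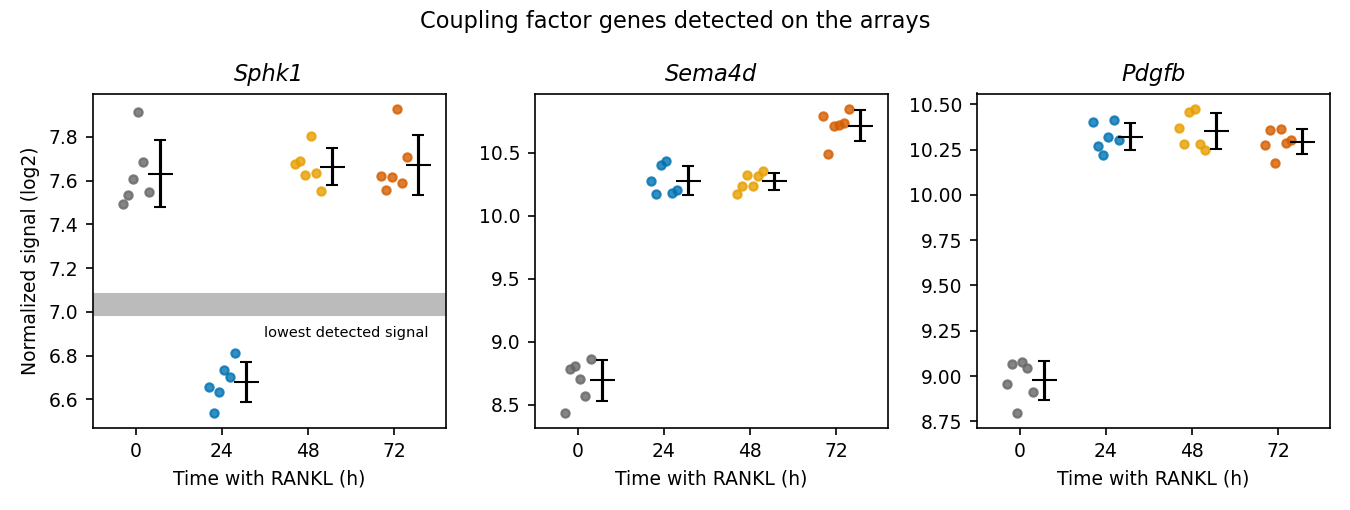
Normalized log2 signal (vertical axes, a different range in each panel) of the Sphk1, Sema4d and Pdgfb probes against hours with RANKL. Each point is 1 array, crosses with bars are the mean and SD of 6 arrays, and the grey band spans the lowest detected signals of the arrays, 6.99 to 7.08. Only the 24 h arrays of Sphk1 lie under the band, and all later arrays of Sema4d and Pdgfb lie above the 0 h arrays.

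Counted over the 3 tested members at an adjusted p under 0.05, 2 were higher and 1 lower at 24 h than at 0 h, where 29.2% of all genes tested were higher and 37.8% lower. The comparison of 48 h with 0 h gave 2 members higher and 0 lower (33.1% and 39.2% of all genes). That of 72 h with 0 h gave the same counts (34.2% and 39.4%). From 24 to 48 h, 1 member, Sphk1, was higher and 0 were lower at the later time (39.2% and 34.6% of all genes). From 48 to 72 h, 1 member, Sema4d, was higher and 0 were lower at the later time (17.4% and 19.4%). Most genes were called at each time against 0 h, so a call alone did not set a member apart. The split of all genes depended on the scaling. With arrays scaled to the 75th percentile it was 22.8% higher and 48% lower at 24 h against 0 h. For 72 h against 48 h it was 8.07% and 20.8% after median scaling, and 9.92% and 19.1% in the authors' processed values. The counts of members did not move with it.

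**Figure D2:**
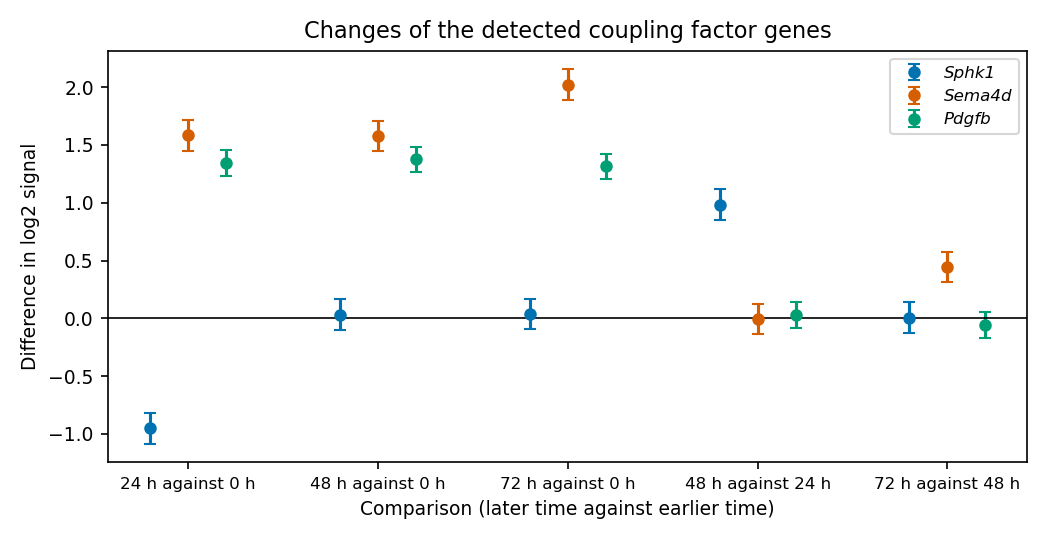
Difference in log2 signal (vertical axis) of Sphk1, Sema4d and Pdgfb in 5 comparisons of a later with an earlier time (horizontal axis), with 95% intervals from limma. Sema4d and Pdgfb lie above 0 against 0 h at every time, Sphk1 lies at -0.95 at 24 h and at 0.98 from 24 to 48 h, and only Sema4d moved from 48 to 72 h. The Sphk1 values at 24 h come from arrays where it was not detected.

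The groups were also compared member by member with exact two-sided permutation tests, 15 in all, over the 924 divisions of 12 arrays. Wherever the arrays of both times did not overlap, the exact p was 0.00216, the smallest that 6 against 6 allows, and these were the 9 comparisons that limma called. The 6 others gave exact p-values between 0.266 and 0.924. Both tests read the same arrays. How many of all genes tested separated in this way was not counted, so the number of such comparisons does not set the members apart.

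The 5 remaining members gave no level. Efnb2 and Bmp6 have 1 probe each, Cthrc1 and Wnt10b 2, and Lif 5. All 11 probes stayed between 6.07 and 6.96 on the log2 scale, and the lowest detection p of any of them on any array was 0.0748, for a Lif probe. For the others the lowest detection p was 0.359 for Efnb2, 0.255 for Cthrc1, 0.254 for Wnt10b and 0.736 for Bmp6. These transcripts were not detectable at the sensitivity of the arrays, which does not show that they were absent. When no filter on dim probes was used and 19057 genes were fitted, each by its brightest probe, none of the 5 was called in any of the 5 comparisons. For Cthrc1 that fit used probe ILMN_2713401.

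Within these undetected probes 1 pattern was larger than the spread, although it lies below detection. Cthrc1 encodes a secreted collagen triple helix repeat protein, and its probe ILMN_1225073 averaged 6.23, 6.21, 6.55 and 6.40 at 0, 24, 48 and 72 h. The 48 h arrays, 6.47 to 6.69, lay above all 0 h arrays, 6.14 to 6.32. The second Cthrc1 probe averaged 6.32, 6.38, 6.39 and 6.38 at these times. No fold is given for signals that were below detection at both times, and this probe, which the unfiltered fit did not use, was singled out after its values were seen.

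**Figure D3:**
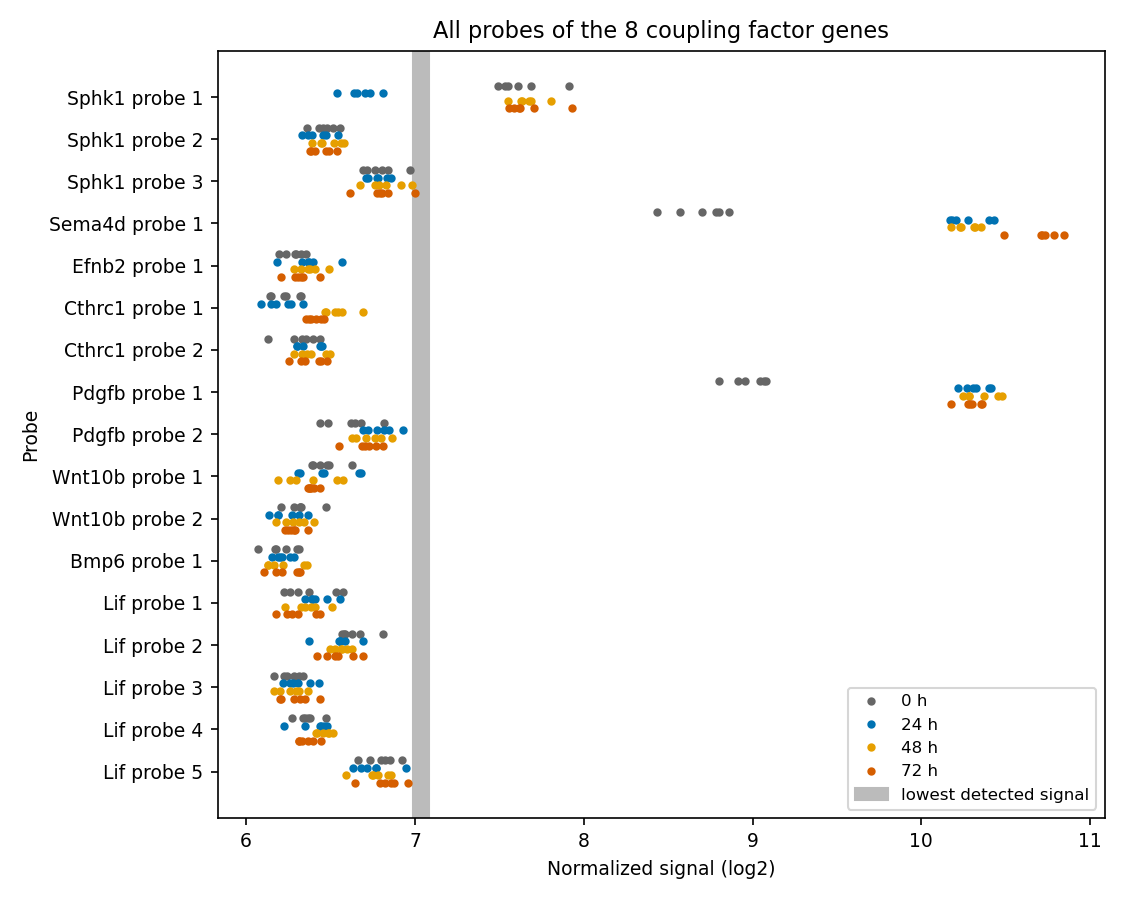
Normalized log2 signal (horizontal axis) of all 17 probes of the 8 genes (rows), each point 1 array coloured by hours with RANKL. The grey band spans the lowest detected signals of the arrays, 6.99 to 7.08. Only 3 probes, 1 each of Sphk1, Sema4d and Pdgfb, have arrays to the right of the band.

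The members were set beside other genes of their pathways, from lists of related genes. Of 13 genes of sphingosine-1-phosphate turnover, export and receptors besides Sphk1, 6 were tested. Set against 0 h, 1 rose and 4 fell by 24 h, with a median log2 difference of -0.64 against -0.05 over all genes. Sgpl1, the lyase that destroys sphingosine-1-phosphate, was 2.48-fold lower at 24 h (10.60 ± 0.11 at 24 h against 11.91 ± 0.15 at 0 h, SD, n = 6 each, adjusted p = 4.15e-21, limma). Plpp3, a membrane phosphatase that removes the phosphate from extracellular lipids, fell 2.13-fold by 24 h but exceeded its 0 h level 1.88-fold at 48 h and 3.17-fold at 72 h (adjusted p = 5.84e-18, 7.52e-16 and 8.09e-24, limma). Its second probe gave a log2 difference of -0.31 at 24 h and 1.48 at 72 h. Plpp1, a relative of Plpp3, was the gene that was higher at 24 h, 1.33-fold.

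By 48 h, and again by 72 h, 3 of the 6 stood above 0 h and 1 below it, but these counts depended on the scaling. With arrays scaled to the 75th percentile or the median 2 stood above and 1 below by 48 h, and 1 above and 2 below by 72 h. Sgpp1, a phosphatase of intracellular sphingosine-1-phosphate, was 1.32-fold higher at 48 h (adjusted p = 1.68e-07, limma), and its small rise at 72 h was lost under those scalings.

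Around Sema4d, 23 semaphorins, plexins, neuropilins and partners of their receptors were listed, and 15 were tested. Relative to 0 h, 4 rose and 5 fell by 24 h, 11 rose and 2 fell by 48 h, and 11 rose and 4 fell by 72 h. With median scaling 8 rose and 2 fell by 48 h. Their median log2 difference was 0.02, 0.34 and 0.24 at 24, 48 and 72 h, against -0.05, -0.03 and -0.03 over all genes.

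Cd72, the receptor of semaphorin 4D on immune cells, moved furthest of these. It was 3.78-fold higher at 24 h (11.97 ± 0.08 at 24 h against 10.05 ± 0.11 at 0 h, SD, n = 6 each, adjusted p = 1.19e-26, limma). The rise stood at 3.47-fold by 48 h and reached 4.43-fold by 72 h. Of the plexins, which are semaphorin receptors, Plxnd1 was 1.99-fold higher at 48 h (adjusted p = 5.03e-20, limma) and Plxna2 1.89-fold higher at 72 h (adjusted p = 2.09e-15, limma) than at 0 h. Plxnc1, the receptor of semaphorin 7A, was 1.89-fold lower at 24 h, but its second probe gave a log2 difference of -0.15 that did not pass. By 48 h both probes had risen over 0 h, by 0.61 and 0.57 on the log2 scale. Nrp2, a co-receptor of class 3 semaphorins, was 2.33-fold higher at 24 h (adjusted p = 1.77e-17, limma), with log2 differences of 1.28 and 0.13 on its other kept probes. Trem2, a receptor whose DAP12 complex joins plexin signalling in osteoclast precursors, was 1.55-fold lower at 24 h and 1.38-fold above its 0 h level by 72 h (adjusted p = 9.94e-13 and 1.83e-09, limma). At 48 h its log2 difference was 0.26, which did not pass with 75th percentile scaling, with median scaling or in the processed table. Of the other ligands, Sema6b was 1.82-fold lower and Sema4b 1.33-fold lower at 72 h than at 0 h (adjusted p = 9.40e-15 and 8.38e-07, limma).

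Among 6 other platelet-derived growth factor ligands and receptors, 2 were tested. Pdgfa, the A chain, exceeded its 0 h level 1.32-fold by 24 h, 1.89-fold by 48 h and 2.21-fold by 72 h (adjusted p = 0.000101, 5.33e-12 and 1.48e-14, limma). Pdgfc was detected on 0 of 6 arrays at 24 h, against 5 of 6 at 0 h, and later exceeded its 0 h level 2.12-fold by 48 h and 1.80-fold by 72 h (adjusted p = 5.14e-19 and 6.53e-16, limma). Pdgfa was also higher at 48 h than at 24 h, 1.44-fold, and at 72 h than at 48 h, 1.17-fold (adjusted p = 1.08e-06 and 0.0371, limma), comparisons in which Pdgfb was not called. The difference between the genes was not tested. Neither receptor gene passed the filter: Pdgfra was detected on at most 2 of the 24 arrays by any probe and Pdgfrb on 0.

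**Figure D4:**
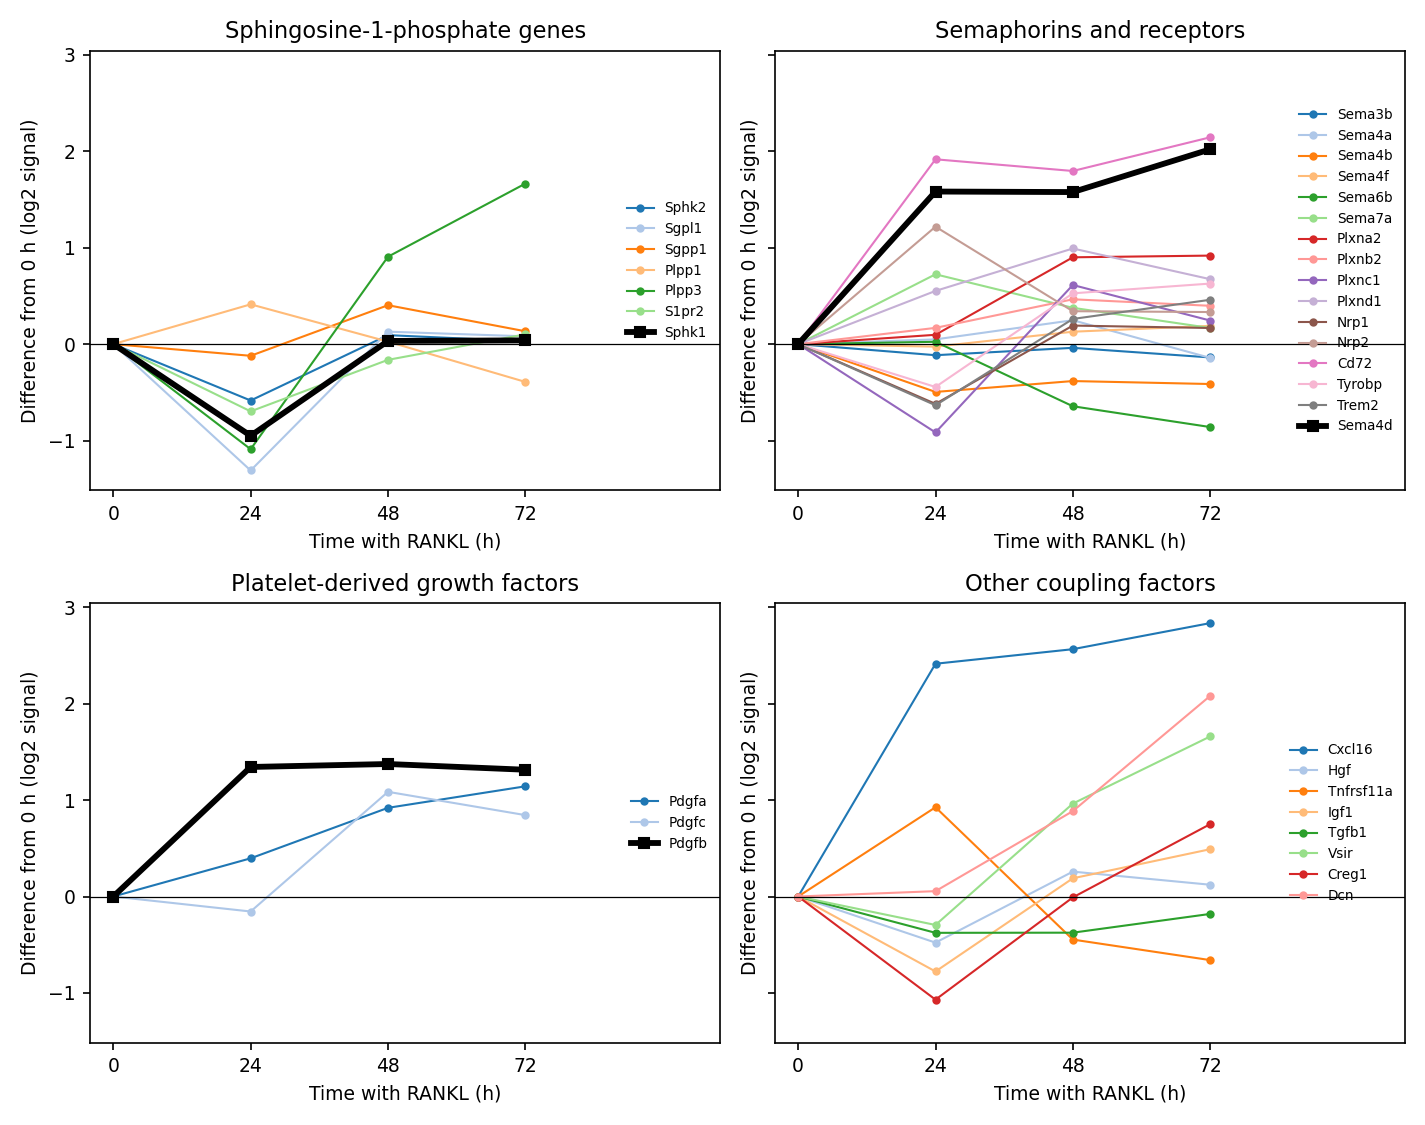
Difference in mean log2 signal from 0 h (vertical axes) against hours with RANKL (horizontal axes) for the tested genes of 4 lists, with the member of the pathway drawn in black squares. Lines join means of 6 arrays. Cd72 and Sema4d lie highest in their panel, Sphk1 dips at 24 h with Sgpl1 and Plpp3, and Cxcl16 lies highest among the other coupling factors.

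Relatives of the undetected members were read in the same way. Of 17 other ephrins and Eph receptors, the family of Efnb2, 6 were tested, and 0 passed at 24 or 48 h in either direction. Efna4 alone passed at 72 h, by 1.19-fold above 0 h (adjusted p = 0.000357, limma). Under 75th percentile scaling 3 were lower at 24 h.

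Of 28 Wnt ligands, Wnt processing factors and secreted inhibitors besides Wnt10b, 5 were tested. By 24 h 0 rose and 3 fell, and by 48 h, as by 72 h, 2 rose and 1 fell, each against 0 h. Porcn, which attaches the lipid that Wnt proteins need, was 1.43-fold higher at 72 h, and Wls, their transport receptor, 1.37-fold higher (adjusted p = 9.23e-10 and 3.65e-07, limma). The ligand Wnt6 was detected on 0 of 6 arrays at 72 h and on 6 of 6 at 0 h, at least 1.25-fold lower at 72 h (adjusted p = 1.02e-12, limma).

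Of 18 BMP ligands, receptors and antagonists besides Bmp6, 7 were tested. By 24 h 2 rose and 1 fell, and by 48 h, as by 72 h, 3 rose and 1 fell, each against 0 h. With 75th percentile scaling 2 rose and 3 fell by 24 h. The type 2 receptor gene Bmpr2 was 1.79-fold lower at 24 h, and the type 1 receptor gene Acvr1 rose 1.45-fold by 24 h but had fallen 1.47-fold below 0 h by 72 h (adjusted p = 5.88e-12, 8.01e-10 and 2.69e-10, limma). The antagonist gene Grem1 was detected on 5 of 6 arrays at 72 h and on none before. It passed the filter through the 72 h arrays alone, so this is a description, though Grem1 is among the genes counted as higher at 48 and 72 h.

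Of 12 cytokines and receptors of the interleukin 6 family, to which LIF belongs, 5 were tested. By 24 h 0 rose and 3 fell, and by 48 h, as by 72 h, 1 rose and 1 fell, each against 0 h. With median scaling 0 rose and 2 fell by 72 h. Osm, the ligand oncostatin M, was 2.29-fold lower at 24 h (adjusted p = 1.12e-17, limma), while its second probe gave a log2 difference of -0.11 that did not pass. Lifr, the LIF receptor, was detected on 0 arrays at 24, 48 and 72 h, against 3 of 6 at 0 h, and it passed the filter through the 0 h arrays alone. This is therefore a description, though Lifr is among the genes counted as lower at 24 h. It is also the 1 gene counted as lower at 48 h and at 72 h. Il6ra, the interleukin 6 receptor, was 1.39-fold higher at 48 h (adjusted p = 9.63e-07, limma), with log2 differences of 0.81 and 1.06 on its other probes, against 0.47 here.

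Coupling factors outside the 8 members were listed as well, and 8 of 13 were tested. By 24 h 2 rose and 5 fell, and by 48 h, as by 72 h, 5 rose and 2 fell, each against 0 h. With median scaling 4 rose and 3 fell by 48 h. The median log2 difference of the 8 was -0.34, 0.22 and 0.62 at 24, 48 and 72 h. Over all genes it was -0.05, -0.03 and -0.03. Cxcl16, a chemokine that draws osteoblast precursors, stood at 11.88 ± 0.12 by 24 h, against 9.46 ± 0.05 at 0 h (SD, n = 6 each). This rise was 5.33-fold, and it grew to 5.92-fold by 48 h and 7.14-fold by 72 h (adjusted p = 1.29e-29, 7.78e-31 and 1.67e-32, limma). Its second probe gave log2 differences of 1.06, 2.08 and 2.47 at these times. Dcn, the matrix proteoglycan decorin, was 4.23-fold higher at 72 h (adjusted p = 4.71e-26, limma), from a 0 h level at which 3 of 6 arrays detected it, and 1.29 on the log2 scale by its second probe. Tnfrsf11a, which encodes RANK, the receptor of RANKL that is also shed on vesicles, rose 1.9-fold by 24 h, and by 48 and 72 h it lay 1.36-fold and 1.58-fold under its 0 h level (adjusted p = 5.76e-15, 1.80e-07 and 2.95e-11, limma). Creg1, a secreted glycoprotein, was 2.10-fold lower at 24 h, and by 72 h it exceeded its 0 h level 1.68-fold (adjusted p = 1.72e-20 and 2.95e-16, limma). Igf1, an osteoblast growth factor, was 1.71-fold lower at 24 h, and by 72 h it lay 1.41-fold above 0 h (adjusted p = 2.08e-15 and 2.33e-10, limma). Vsir, an immune checkpoint ligand, was 1.95-fold higher and Tgfb1 1.30-fold lower at 48 h (adjusted p = 1.29e-16 and 4.06e-06, limma). The log2 difference of Vsir from 0 h was -0.30 at 24 h and 1.66 at 72 h. That of Tgfb1 was -0.38 and -0.18.

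Over the 24 arrays, which share 4 conditions, the named genes whose log2 signals followed a member most closely were found by Pearson's r, given as a description. For Sema4d they were Cxcl16 (r = 0.980), Pak2 (0.977) and Dok1 (0.977), and for Pdgfb Cxcl16 (0.980), Ncf4 (0.977) and Pmaip1 (0.976). For Sphk1 they were Arl11 (0.979), Aatk (0.975) and Yipf3 (0.974). The r values of Sphk1, here and below, include its 24 h signals, which were below detection on every array. Between the members themselves, r was 0.94 for Sema4d and Pdgfb over all arrays and -0.30 once the mean of each time was removed. It was -0.17 for Sphk1 and Sema4d and -0.27 for Sphk1 and Pdgfb over all arrays, and 0.062 and 0.42 with the time means removed. The closeness of Sema4d and Pdgfb thus lay between times, not between arrays of 1 time.

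The labelled cell type and its change were read from marker genes. Of 10 osteoclast markers listed, 8 were tested. Of the others, Atp6v0d2 was detected on 0 arrays and Calcr on at most 2 by any probe. Of the 8, 7 were higher at each of 24, 48 and 72 h than at 0 h, while from 48 to 72 h 7 were lower and 0 higher. The summed linear signal of the 8 per array was 4563 to 4961 at 0 h, 11298 to 11913 at 24 h, 36710 to 40862 at 48 h and 30290 to 33534 at 72 h. At 72 h Ctsk was 7.80-fold, Mmp9 14.5-fold and Acp5 2.62-fold higher than at 0 h. Of 7 macrophage markers tested, 1 rose and 3 fell by 24 h, 4 rose and 1 fell by 48 h, and 3 rose and 2 fell by 72 h. Their sums were 47393 to 52190, 45580 to 48491, 58996 to 64989 and 54901 to 58586 at these times. With 75th percentile scaling, median scaling or the processed values, 0 macrophage markers rose by 24 h and 3 fell by 72 h. Sema4d and Pdgfb had reached most of their rise at 24 h, when the osteoclast sum was well under its 48 h level.

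Markers of other marrow cells moved with time too. All 12 neutrophil markers tested were lower at each later time than at 0 h, with sums of 59984 to 65243 at 0 h, 26178 to 27623 at 24 h, 23606 to 25045 at 48 h and 11159 to 12518 at 72 h. Of 7 erythroid and megakaryocyte markers, 7, 6 and 6 were lower at 24, 48 and 72 h, with sums of 9538 to 11319, 5322 to 6270, 3680 to 4355 and 2586 to 3108. The 2 lymphocyte markers tested were both lower at every later time, with sums of 415 to 466, 274 to 283, 271 to 315 and 219 to 256. The 2 endothelial markers tested were lower at 24 and 48 h and 1 was lower at 72 h, with sums of 1803 to 2042, 705 to 791, 1432 to 1575 and 1497 to 1779. With median scaling or in the processed values, 1 of the 2 was lower at 48 h. Of 3 stromal and osteoblast markers tested, 1 fell by 24 h and 2 rose by 48 h and by 72 h, with sums of 420 to 457, 351 to 412, 562 to 597 and 582 to 641, while Sp7 and Bglap, which define osteoblasts, were detected on no array. With 75th percentile scaling, 2 of the 3 fell by 24 h and 1 rose by 48 h. The part of these cells in the courses of the members was not tested, and in such bulk samples fewer cells of a type and less RNA per cell cannot be told apart.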

How the data were processed

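RNA of the BMMs was hybridized to Illumina bead arrays, with 6 arrays at each of 4 times. The authors deposited the signal intensity of each probe, extracted with GenomeStudio and not normalized, and its detection p-value. A second table holds the authors' processed log2 values, with array medians of 1.90 to 1.99. It ranks the probes as the signals do, and its direction is that of the signal. The study's methods name a log transformation and the quantile method, but quantile normalization would have given all arrays the same median, so how this table was scaled is not settled. The labels and the study's methods name different RNA labelling kits.

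The signals were put on a log2 scale and quantile normalized together, using limma 3.58.1 (R 4.3.3). A probe stayed in if its detection p was below 0.05 for 3 or more arrays of any 1 time, which left 18346 of 45281. The annotation gave 1 symbol for 34885 probes, several for 18 and none for 10378, and 34807 of those with 1 symbol were found among RefSeq genes by Entrez ID. A gene was represented by its brightest kept probe on average. Each of 9917 genes was fitted with limma (lmFit, contrasts, eBayes with a trend) over the 4 times with 20 residual degrees of freedom, two-sided, and Benjamini-Hochberg adjusted over all of them at a threshold of 0.05. The script was tested on simulated data. The number of arrays limits the precision. Array medians were 89.5 to 122, 15781 to 17109 probes were detected per array, and replicate arrays correlated at 0.994 to 0.998.

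The members and the gene lists were chosen with earlier results of these data known. From each pathway list the text names, for each time against 0 h, at most 2 genes that rose and 2 that fell, those past the threshold with the greatest change, besides all members, 3 osteoclast markers and the 3 genes most like each tested member. Promoter windows come from RefSeq, GRCm38.p6. The build of the array annotation is not named, so no gene coordinates are given. Alternatives tried were other scalings and background correction, the processed values, other filters and probes, the methods' t-test, fewer arrays in the fit, array weights, replicate number as a block and leaving out each replicate number.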

Additional observations from a re-analysis of the deposited data

How the results depend on the processing

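The calls of the members held under all but 1 alternative. With the methods' t-test and Bonferroni adjustment, Sema4d no longer passed at 72 h against 48 h (adjusted p = 0.149), so the count of members higher there was 0 in place of 1. The other 284 recalculated changes of single members kept their side of the threshold, and those that passed kept their direction. The other 189 recalculated counts were unchanged. Changes that passed in neither fit could differ in sign. That of Pdgfb from 24 to 48 h, for example, ran between -0.09 and 0.06 on the log2 scale. Over all alternatives the log2 change of Sema4d at 72 h against 0 h ran between 1.91 and 2.08 and of Pdgfb at 24 h between 1.30 and 1.41.

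The named pathway and marker genes held less well against 0 h. Of their recalculated changes, 1966 kept their side of the threshold, 97 no longer passed and 26 passed only in the alternative. A further 14 changed sign with a pass in the main fit, the alternative or both. Sign changes that passed in neither are among the 1966. Pdgfa, Bmpr2 and Plpp1 at 24 h, and Sgpp1, Tgfb1 and Tnfrsf11a at 48 h, each failed to pass in 1 alternative. So did Wls, Porcn, Efna4, Sema4b and Trem2 at 72 h. Il6ra changed sign: at 24 h against 0 h it was 0.27 (log2) as the mean of its probes and 0.46 on its second probe, and at 72 h 0.35 and 0.64. Under 75th percentile and median scaling, Igf1 was -0.037 and -0.013 and Sgpl1 -0.045 and -0.021 at 48 h, and Sgpp1 -0.051 and -0.062 and S1pr2 -0.10 and -0.11 at 72 h. S1pr2 was -0.048 at 72 h in the authors' processed values, and Plpp1 was 0.044 at 72 h on its second probe. The causes were not tested.

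The replicate numbers were not treated as pairs, and whether they are pairs is not settled. The deviations of 25 of 36 same-numbered pairs of arrays correlated above 0.1 (median r 0.14, range -0.21 to 0.49). Among arrays of other times, 10 of 24 arrays correlated best with their own number. The values to be expected without pairing were not worked out. With the replicate number as a block, calls over all genes rose by 1.02 to 1.12 times, and the counts of members stayed as without it, 2 up and 1 down for 24 h, and 2 up and 0 down for 48 h and for 72 h, each against 0 h. No slide is named in the headers, so no slide block was run. Members below the lowest detected signal, 6.99 to 7.08 on the log2 scale, cannot be ranked.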
